A study of Mus musculus with 10 samples.

Results

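The 10 genes Fos, Fosb, Fosl2, Jun, Junb, Jund, Egr1, Ier2, Dusp1 and Zfp36 are immediate early genes built around the transcription factors AP-1 and EGR1. They were taken by gene symbol from the count files, in which each of the 10 matched 1 of 55573 annotated genes. The cells were bone marrow HSPCs (hematopoietic stem and progenitor cells), which renew the blood. All libraries came from C57BL/6 mice (C57BL/6J in the series' design text) of 16 weeks, and all mice had received 500 cGy of radiation to the whole body, 6 weeks before. One group of 5 libraries came from mice injected under the skin with saline, the other 5 from mice injected with EGF (epidermal growth factor), which activates the receptor tyrosine kinase EGFR. There were no unirradiated mice in the libraries analysed here, and nothing in the labels ties a library to its own mouse. P-values therefore measure spread between libraries, part of which may be technical. The EGF schedule, the interval between the last injection and collection, and the sort gate were not stated in any source used here.

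Immediate early genes are transcribed within minutes of a stimulus, without new protein synthesis, and their short-lived mRNAs soon decay. Growth factors reach them through the RAS-ERK cascade, which activates ternary complex factors such as ELK1 beside serum response factor (SRF). Stress kinases and cAMP act on CREB and ATF proteins that bind cAMP response elements. FOS proteins (Fos, Fosb, Fosl2) dimerize with JUN proteins (Jun, Junb, Jund) to form AP-1, which binds TGANTCA and related elements. EGR1 is a zinc finger factor that binds GC-rich sites of the form GCGNGGGCG. IER2 is a small nuclear protein of the same early response. DUSP1 dephosphorylates MAP kinases, and ZFP36 (tristetraprolin) promotes decay of mRNAs with AU-rich elements, so both limit the response. Egr1 and Junb are among the factors known to restrain hematopoietic stem cell proliferation in mice. Immediate early genes are also known to respond to the isolation of cells from tissue.

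The start site regions of the members are shown because these elements are what the upstream factors bind, and Fosl2 and Fosb are among the members that the results turn on. RefSeq (GRCm38.p6) gave a promoter of 300 bases, 250 before the start and 50 after, for 8 of the 10 members. The motifs were searched on both strands, except TATAAA, which was searched on the gene's strand. Capitals mark the motif matches: TGACG (the core of a cAMP response element) and TATAAA in Fos, TGACG and GCGNGGGCG in Fosb, TGACGTCA (the full cAMP response element, which contains TGACG on each strand) in Dusp1, and GCGNGGGCG in Fosl2 and Zfp36.
Fos: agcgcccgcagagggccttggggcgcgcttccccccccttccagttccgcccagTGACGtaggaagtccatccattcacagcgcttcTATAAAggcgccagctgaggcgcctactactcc
Fosb: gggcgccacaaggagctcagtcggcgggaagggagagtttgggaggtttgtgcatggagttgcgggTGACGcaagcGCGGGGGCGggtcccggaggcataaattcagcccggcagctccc
Dusp1: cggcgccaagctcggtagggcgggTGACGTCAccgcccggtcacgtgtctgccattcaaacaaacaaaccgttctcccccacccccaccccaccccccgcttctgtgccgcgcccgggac
Fosl2: ccggctgcgcGCGGGGGCGgaagggcgcg
Zfp36: gagctacgccGCGGGGGCGcgtcccggaa

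The Fos stretch is chr12:85473770-85473889 on the plus strand and ends at the base before the start site. The Fosb stretch is chr7:19310052-19310171 on the minus strand, and the Dusp1 stretch is chr17:26508520-26508639 on the minus strand. The Fosl2 and Zfp36 stretches are single sites of 29 bases, chr5:32136383-32136411 on the plus strand and chr7:28379315-28379343 on the minus strand, which begin 89 and 115 bases before the RefSeq start. Both lie inside the gene as GENCODE M21 gives it, downstream of its first base (chr5:32135801 for Fosl2 and chr7:28380253 for Zfp36). They are therefore upstream by the RefSeq start only. The Dusp1 stretch also lies inside its gene's span in GENCODE, but outside the exons. Over all 32851 RefSeq promoters of this length, TGACG was present in 20.8%, against 4 of the 8 members (Fos, Fosb, Junb and Dusp1). The full TGACGTCA was present in 1.79% of promoters and in 1 member, Dusp1, 143 bases before the start. GCGNGGGCG was present in 5.55% of promoters and in 3 members, Fosb, Fosl2 and Zfp36. The CArG box, the element that SRF binds, was present in 1.63% of promoters and in 1 member, Zfp36. It began 58 bases before the RefSeq start, which is also inside the exon of Zfp36 in GENCODE. TATAAA was present in 8.32% of promoters and in Fos, 33 bases before the start, and in Junb, at the start. TGANTCA was present in 7.81% of promoters and in 0 of the 8 members, which says only that these letters are not in this window. The same limit holds for every motif not found in a member, the CArG box included. Egr1 and Ier2 had no promoter to search. Fosl2 thus shared the GCGNGGGCG match with Fosb and Zfp36. A match is a description of the letters and not evidence of binding.

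Depth was even, from 6805106 to 8370820 counts per library, and the members together took 0.316% to 0.417% of the counts with saline and 0.341% to 0.450% with EGF. All 14 HSPC markers were tested, and their summed level was 1715 to 2109 CPM (read counts scaled for library depth) with saline and 1994 to 2308 CPM with EGF. Genes listed as markers of other cells also had counts, and whether these came from other cells or from the HSPCs themselves was not tested. Summed neutrophil markers ran from 1475 to 5016 CPM with saline and 1611 to 2441 CPM with EGF. B and plasma cell markers ran from 617 to 1391 CPM and 120.2 to 844 CPM, and stromal and endothelial markers from 174 to 786 CPM and 161 to 681 CPM. Megakaryocyte (111 to 177 and 110.3 to 193 CPM), monocyte and macrophage (41.9 to 134 and 60.4 to 92.9 CPM), erythroid (37.8 to 70.5 and 32.0 to 89.4 CPM) and T and NK cell markers (5.61 to 13.5 and 0 to 22.0 CPM) were lower. In bulk RNA, fewer cells of a type and less RNA per cell cannot be told apart. EGF replicate 5 stood apart: 12731 genes had a count in it, against 18734 to 20046 in the other 9 libraries, and the nuclear RNA Malat1 took 1.62% of its counts. The fold changes of the members and the medians of the lists are therefore given with all libraries and without it.

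In these irradiated HSPCs the members were expressed with and without EGF. Their saline means lay between percentile 74.1 (Fosl2) and percentile 99.7 (Jun) of all tested genes. The mRNA of 1 member, Fosl2, was higher in every EGF library than in every saline library. Fosl2 averaged 57.6 ± 4.05 CPM in the saline group and 94.6 ± 24.2 CPM in the EGF group (SD, n = 5 each). Fos, Jun and Dusp1 had nearly the same mean in both groups. In edgeR's quasi-likelihood test, adjusted by Benjamini-Hochberg, 0 of the 10 members passed the threshold of 0.05, beside 0.00777% of 12874 genes tested. At an unadjusted p under 0.05 there was 1 member, Fosl2, beside 8.87% of all genes (6.14% in the higher direction). The groups did not overlap for 1 member, again Fosl2, beside 3.27% of all genes (1.62% in the higher direction). A share of 1 in 10 is near the background of 8.87%. Of the 10 fold changes, 6 were above 0 and 4 below, with a median log2 fold change of 0.053 against -0.012 over all genes. Without EGF replicate 5, 0 members passed (0.0611% of 13104 genes did), and 3 had an unadjusted p under 0.05, Fosl2, Egr1 and Ier2, beside 15.8% of all genes. All 3 were higher with EGF, beside 8.38% of all genes in that direction. The groups then still did not overlap for 1 member, Fosl2, beside 4.95% of all genes (2.5% in the higher direction). DESeq2 on the same genes passed 1 member, Fosl2, beside 0.435% of genes with all libraries and 2.39% without EGF replicate 5.

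**Figure D1:**
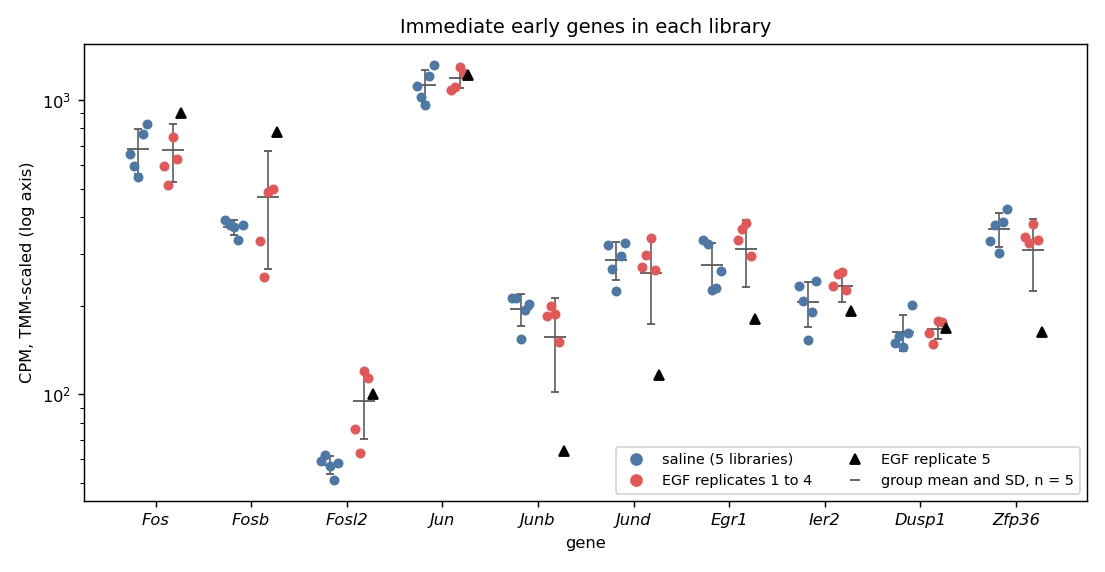
Level of each member in each library (CPM with TMM scaling, log axis), with points for the libraries, bars for the group mean and SD (n = 5) and triangles for EGF replicate 5. Fosl2 is the member whose 5 EGF points (63.1 to 119.8 CPM) all lie above its saline points (51.1 to 62.0 CPM), and the triangle lies far below the other EGF points for Junb, Jund and Zfp36.

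The order of the mRNA levels in the saline libraries was taken per kilobase of the longest protein-coding transcript, since CPM does not correct for length. Jun led at 353 ± 44.9 CPM per kb (SD, n = 5), followed by Fos at 322 ± 55.6 CPM per kb. Then came Jund (172 ± 25.2), Ier2 (135 ± 23.4), Zfp36 (130.4 ± 17.1) and Junb (108 ± 13.3 CPM per kb). Fosb (97.6 ± 5.67), Dusp1 (81.8 ± 11.3) and Egr1 (61.3 ± 11.3 CPM per kb) were lower, and Fosl2 was last at 8.81 ± 0.620 CPM per kb. The ranges of the 5 saline libraries overlapped between all neighbours in this order except Fos and Jund, and Egr1 and Fosl2. Thus Jun and Fos stood above the others, and Fosl2 stood below them. By merged exons instead, Egr1 took place 7, ahead of Fosb and Dusp1, and the other places were the same. Among all tested genes, the saline mean in CPM lay at percentile 99.7 for Jun and at percentile 74.1 for Fosl2.

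Fosl2 encodes FRA2, a FOS protein without the strong activation domain of FOS and FOSB. The gene lies on chr5:32135801-32157842 (GRCm38), plus strand, and its exons overlap those of no other annotated gene. Saline replicates 1 to 5 had 59.4, 62.0, 57.2, 51.1 and 58.2 CPM. EGF replicates 1 to 5 had 76.2, 63.1, 119.8, 113 and 100.4 CPM. The groups did not overlap, all EGF values being above the saline values, but EGF replicate 2 did so narrowly. EGF replicates 3, 4 and 5 were clearly higher than replicates 1 and 2, so the EGF libraries ranged over 1.90-fold and the saline libraries over 1.21-fold. The log2 fold change was 0.72 (SE 0.17, edgeR unadjusted p = 0.0012, adjusted p = 0.552). Leaving out EGF replicate 5 gave 0.69 (SE 0.16, edgeR adjusted p = 0.136). DESeq2 gave an adjusted p of 0.0262 on the genes kept for edgeR, 0.0879 on all genes with a count, and 0.00251 without EGF replicate 5. Over all alternatives the adjusted p ran from 0.0022 to 0.833. Fosl2 therefore passed by DESeq2 on the genes kept for edgeR, with or without EGF replicate 5. It also passed by DESeq2 on all genes with a count without that library (adjusted p = 0.0022), but not from all 10 libraries. It did not pass by edgeR, nor by limma-voom with quality weights, with or without EGF replicate 5 (limma-voom adjusted p = 0.120 with all libraries). Scaled by library size alone, the groups overlapped.

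The share of the nuclear RNA Malat1 in the counts was highest in the same 3 EGF libraries that had the most Fosl2, but not in the same order. EGF replicate 5 had the highest share and less Fosl2 (100.4 CPM) than replicates 3 and 4 (119.8 and 113 CPM). Malat1 took 0.521%, 0.387%, 0.908%, 0.905% and 1.62% of the counts in EGF replicates 1 to 5 and 0.336% to 0.444% in the saline libraries. EGF replicate 2, with the lowest Fosl2 among the EGF libraries, was the EGF library whose Malat1 share lay within the saline range. Mitochondrial genes took 5.89% to 7.43% of the counts with saline and 7.72% to 10.04% with EGF, which also separated the groups. The part of either in the Fosl2 difference was not tested. Without EGF replicates 3 and 4, the log2 fold change of Fosl2 was 0.47, and without replicates 3, 4 and 5 it was 0.27, where the libraries left out are the 3 EGF libraries with the most Fosl2. The lowest count behind any value of a member was 380 reads, of Fosl2 in Saline replicate 4 (exact Poisson 95% interval 343 to 420.2, counting error only), and the highest was 10466, of Jun.

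Fosb, the FOS protein whose gene also gives the stable splice form delta-FosB, lies on chr7:19302696-19310051, minus strand. In saline replicates 1 to 5 it was at 391, 375, 371, 333 and 375 CPM. Its EGF levels were 333, 250.5, 486, 497 and 777 CPM. The saline libraries were nearly level, with a coefficient of variation of 5.81%, the smallest of the 10 members. The EGF libraries lay on both sides of them, 3 above all saline libraries and 2 below, and spread 3.10-fold with a coefficient of variation of 43.0%. Fosb had a log2 fold change of 0.34 (SE 0.24, edgeR adjusted p = 0.637) with all libraries and 0.086 (SE 0.16, edgeR adjusted p = 0.829) without EGF replicate 5. Without EGF replicates 3, 4 and 5, the 3 with the most Fosb, it was -0.34, and the remaining 2 EGF libraries lay below all saline libraries, replicate 1 by less than 1 CPM. Fosb was thus high in the same 3 EGF libraries that had the most Fosl2, with the difference that EGF replicates 1 and 2 lay below the saline group for Fosb and above it for Fosl2. This contrast depended on the scaling. By total count alone, EGF replicate 1 was inside the saline range for Fosb (339 CPM, lowest saline library 322 CPM). EGF replicate 2 was then inside it for Fosl2 (61.2 CPM, highest saline library 63.0 CPM).

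Fos, the prototype of the family, lies on chr12:85473890-85477273, plus strand. The saline libraries held 655, 598, 546, 764 and 830.5 CPM in replicates 1 to 5. EGF replicates 1 to 5 held 594, 515, 749.7, 628 and 905 CPM. The highest and the lowest of the 10 libraries were both EGF libraries, replicates 5 and 2, and the other EGF libraries lay within the saline range. The means were 679 ± 117 CPM with saline and 678 ± 152 CPM with EGF (SD, n = 5 each), a log2 fold change of -0.00053 (SE 0.16, edgeR adjusted p = 0.999). Leaving out EGF replicate 5 gave Fos a log2 fold change of -0.13 (SE 0.13, edgeR adjusted p = 0.657), so its sign was not settled.

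The makeup of the Fos family mRNA was compared per kilobase over Fos, Fosb, Fosl1 and Fosl2. Fos made up 70.7% to 78.9% of it with saline, and 73.7%, 76.2%, 70.6%, 66.4% and 65.3% in EGF replicates 1 to 5. Fosb made up 19.2% to 26.8% with saline, and 23.0%, 20.7%, 25.5%, 29.3% and 31.2% with EGF. EGF replicates 3, 4 and 5 thus lay below the saline range for Fos, replicate 3 only narrowly, and replicates 4 and 5 lay above it for Fosb. Fosl2 made up 1.70% to 2.42% with saline, and 3.05%, 3.01%, 3.64%, 3.86% and 2.34% with EGF. Its share was above the saline range in EGF replicates 1 to 4 and within it in replicate 5, where all of Fos, Fosb and Fosl2 were high. Fosl1 was a minor component, 0.114% to 0.289% with saline and at most 1.13%, in EGF replicate 5.

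**Figure D2:**
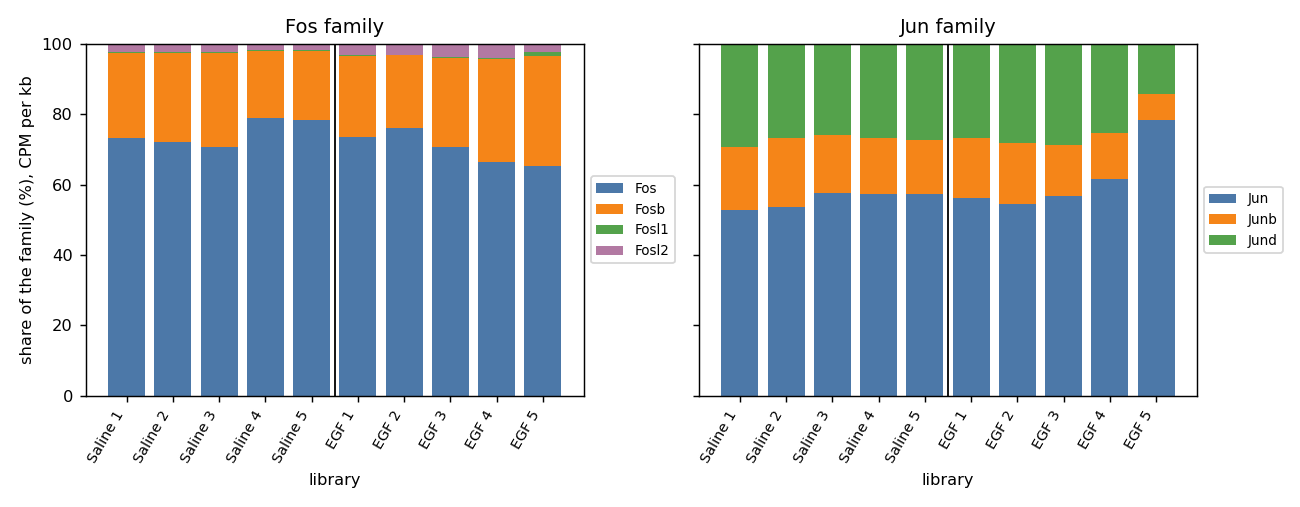
Share of each gene in the Fos family (left) and Jun family (right) in each library, as percent of the summed CPM per kb of longest coding transcript, with the saline libraries left of the vertical line. EGF replicate 5 stands out in the Jun family, where Jun made up 78.4% against 52.9% to 57.8% with saline.

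Jun encodes the main partner of FOS and lies on chr4:95049034-95052222, minus strand. Saline replicates 1 to 5 held 1111, 1023, 959.8, 1210.2 and 1317 CPM. Its EGF levels were 1085, 1103, 1294, 1235 and 1212 CPM, all within the saline range. The EGF libraries spread only 1.19-fold, EGF replicate 5 included. Jun had a log2 fold change of 0.077 (SE 0.10, edgeR adjusted p = 0.80) with all libraries and 0.069 (SE 0.095, edgeR adjusted p = 0.755) without EGF replicate 5. The antisense gene Junos overlaps 7.28% of the exonic bases of Jun, and its own level was at most 1.88 CPM.

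Junb, a JUN protein that can oppose JUN, lies on chr8:84974484-84978718, minus strand. In the saline libraries it was at 213, 212, 154, 193 and 203 CPM in replicates 1 to 5. In EGF replicates 1 to 5 it was at 184, 199, 187, 151 and 64.0 CPM. EGF replicates 1 to 3 lay within the saline range, replicate 4 just below it, and replicate 5 far below it, at 32.8% of the saline mean. Junb had a log2 fold change of -0.31 (SE 0.25, edgeR adjusted p = 0.665) with all libraries and -0.12 (SE 0.10, edgeR adjusted p = 0.589) without EGF replicate 5, so the size of the difference rested on that library. Prdx2, a peroxiredoxin gene on the other strand, overlaps 7.52% of the exonic bases of Junb and was lowest in EGF replicate 5 too, at 56.6 CPM against 95.7 to 103 CPM with saline. Without a known strand setting, reads of the overlap cannot be assigned to either gene.

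Jund, the JUN protein with the steadiest expression in many cells, lies on chr8:70698949-70700616, plus strand. The saline replicates 1 to 5 measured 321, 266, 225, 294 and 327 CPM. With EGF they were 270.5, 297, 339.8, 265 and 116 CPM. EGF replicate 3 was the highest of the 10 libraries and replicate 5 the lowest, at 40.5% of the saline mean, with the other 3 inside the saline range. Its log2 fold change changed sign with that library, from -0.15 (SE 0.23, edgeR adjusted p = 0.821) to 0.032 (SE 0.11, edgeR adjusted p = 0.912) without it. The antisense gene Gm11175 overlaps 52.6% of the exonic bases of Jund, and its own level was at most 3.20 CPM. Within the Jun family, Junb made up 15.6% to 19.6% with saline and 7.29% in EGF replicate 5, and Jund 25.9% to 29.2% with saline and 14.3% in that library. In EGF replicates 1 to 4 Junb made up 13.2% to 17.3%, with replicates 3 and 4 below the saline range.

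**Figure D3:**
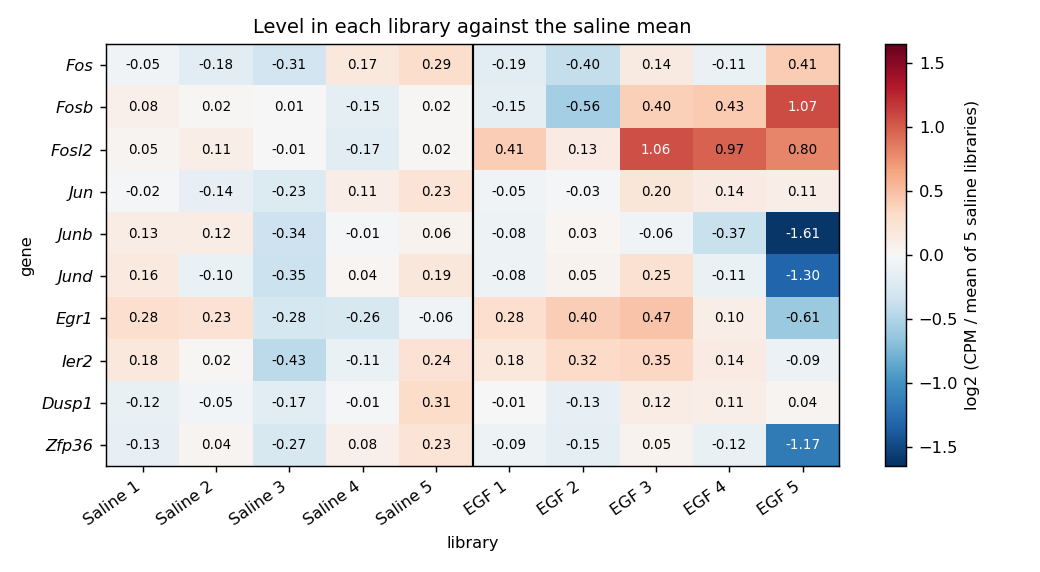
Log2 ratio of each member's CPM in each library to the mean of the 5 saline libraries, in color and printed in each cell, with the saline libraries left of the vertical line. EGF replicate 5 holds both the highest ratio (Fosb, 1.07) and the lowest ratios (Junb, -1.61, Jund, -1.30 and Zfp36, -1.17), and Fosl2 is above 0 in every EGF library.

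Egr1 lies on chr18:34859823-34864984, plus strand, with no overlapping annotated exon. Saline replicates 1 to 5 measured 333, 323, 226, 229.6 and 263 CPM. EGF replicates 1 to 5 measured 334, 364, 382, 295 and 181 CPM. EGF replicates 1, 2 and 3 lay above all saline libraries, replicate 1 by less than 1 CPM, and replicate 5 below them all. Saline libraries averaged 275 ± 50.8 CPM and EGF libraries 311 ± 80.0 CPM (SD, n = 5 each), and the log2 fold change was 0.18 (SE 0.19, edgeR adjusted p = 0.748). Without EGF replicate 5 the EGF mean was 344 ± 37.9 CPM (SD, n = 4), and the log2 fold change was 0.32 (SE 0.12, edgeR unadjusted p = 0.019, adjusted p = 0.229).

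Ier2 lies on chr8:84661331-84662852, minus strand, with no overlapping annotated exon. Saline replicates 1 to 5 were at 232, 208, 152, 191 and 242 CPM. With EGF they were 232, 255, 261, 225 and 192 CPM. EGF replicates 2 and 3 lay above all saline libraries and the other 3 within the saline range, where replicate 5 was the lowest EGF library. The log2 fold change was 0.19 (SE 0.13, edgeR adjusted p = 0.636) with all libraries and 0.25 (SE 0.11, edgeR unadjusted p = 0.0442, adjusted p = 0.302) without EGF replicate 5. Egr1 and Ier2 thus both had larger estimates without that library, and neither passed the adjusted test. Saline replicate 3 was low for most members: it was the lowest of the 10 libraries for Jun, Ier2 and Dusp1, and 1 member, Fosb, exceeded the saline mean in it.

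Dusp1 lies on chr17:26505590-26562128, minus strand, and Ergic1 overlaps 0.332% of its exonic bases. The levels with saline were 149, 157, 145, 161 and 201 CPM in replicates 1 to 5. With EGF they were 162, 148, 177, 176 and 168 CPM, all within the saline range. The EGF libraries spread 1.19-fold, as little as Jun, and EGF replicate 5 was not apart, at 103% of the saline mean. Saline libraries averaged 163 ± 22.4 CPM and EGF libraries 166 ± 11.7 CPM (SD, n = 5 each), a log2 fold change of 0.030 (SE 0.099, edgeR adjusted p = 0.916), and of 0.027 (SE 0.094, edgeR adjusted p = 0.915) without EGF replicate 5.

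Zfp36 lies on chr7:28376784-28380253, minus strand, and the antisense gene Gm44710 (at most 0.571 CPM) overlaps 3.60% of its exonic bases. The levels with saline were 332, 375, 302, 384 and 426 CPM in replicates 1 to 5. Those with EGF were 342, 328, 378, 335 and 162 CPM. EGF replicates 1 to 4 lay within the saline range and replicate 5 below it, at 44.5% of the saline mean. The log2 fold change of Zfp36 was -0.24 (SE 0.20, edgeR adjusted p = 0.673) with all libraries and -0.075 (SE 0.090, edgeR adjusted p = 0.711) without EGF replicate 5. Of the members that limit the response, Dusp1 was therefore level in all EGF libraries, and Zfp36 was so in 4 of them.

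**Figure D4:**
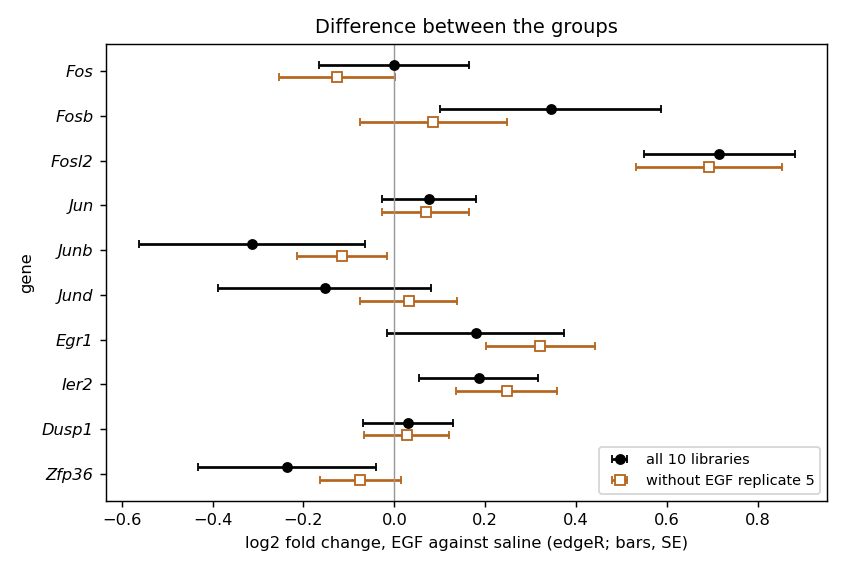
Log2 fold change of each member, EGF against saline (edgeR), with bars for the SE, filled points for all 10 libraries and open squares without EGF replicate 5. Fosl2 stays near 0.7 in both fits, whereas Fosb, Junb and Zfp36 move toward 0 and Egr1 away from it when that library is left out.

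EGF replicate 5 stood at both ends of the range. It was the highest of the 10 libraries for Fos and Fosb and the lowest for Junb, Jund, Egr1 and Zfp36. Fosl2 in it was 174% of the saline mean and Fosb 210.5%, while Jun (108%), Dusp1 (103%) and Ier2 (93.7%) were close to it. The 5 members at or above 100% included all 3 FOS genes, and the 4 members below 70% included both JUN genes other than Jun. Over all genes, EGF replicate 5 also stood apart. Its chi-square per degree of freedom was 83.7 or more against every other library, and at most 36.4 between the others. Its quality weight in limma-voom was 0.026, against 0.79 to 2.22 for the others. The share of all genes as far from the saline mean in it was not taken. Whether the split is particular to these families was therefore not tested. EGF replicate 3 was the highest library for Fosl2, Jund, Egr1 and Ier2 and among the top 3 for 8 members. Saline replicate 5 was the highest for Jun, Dusp1 and Zfp36 and among the top 3 for 7 members. EGF replicate 2 was the lowest for Fos and Fosb, at 515 and 250.5 CPM.

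The genes whose pattern over the 10 libraries was most like the members were ranked by Pearson's r with the mean of the members' standardized log2 CPM, among 8891 other genes with at least 10 CPM. They were Zbtb21 (r = 0.939), Mbtps1 (0.893), Wasl (0.850), Tgif2 (0.842) and Snx33 (0.825). When EGF replicate 5 was left out, their r was 0.883, 0.932, 0.865, 0.869 and 0.849. In those 9 libraries the closest genes were Camk1 (r = 0.957), Krt18 (0.944), Zfp27 (0.943), Ice1 (0.937) and Mbtps1 (0.932), so Mbtps1 was in both sets. These values describe libraries that share depth and scaling, and the genes were picked from all those ranked. The members also went opposite ways in EGF replicate 5, where the log2 ratio to the saline mean was 1.07 for Fosb and -1.61 for Junb. Their mean therefore need not follow any single member.

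Other genes of the pathway were described by the same fit, and 0 genes of any list below passed edgeR's adjusted test. Of 14 further AP-1 and EGR family genes, 12 were tested (not Batf3 and Egr4), with 6 above 0, 6 below and a median log2 fold change of 0.038. In the 9 libraries other than EGF replicate 5, 10 were above 0 and 2 below, with a median of 0.17, so this split and median depended on that library. At an unadjusted p under 0.05, 3 were higher (beside 6.14% of all genes) and 0 lower with all libraries, and 2 were higher (beside 8.38%) and 1, Nab1, lower without it. The EGR family gene Egr3 was at 10.3 ± 4.21 CPM with saline and 21.5 ± 9.35 CPM with EGF (SD, n = 5 each), a log2 fold change of 1.06 (SE 0.36, edgeR adjusted p = 0.552). Leaving out EGF replicate 5, it was 1.21 (SE 0.29, edgeR adjusted p = 0.137). The groups then did not overlap, beside 2.5% of all genes in the higher direction. DESeq2 passed Egr3 in that setting, beside 183 of 13104 genes called higher. The stress-induced factor Atf3 was at 10.4 ± 2.08 CPM and 17.8 ± 7.42 CPM, a log2 fold change of 0.78 (SE 0.29), or 0.52 (SE 0.21) without that library. Fosl1, which encodes the FOS protein FRA1, was low with saline, at 1.31 ± 0.597 CPM, and reached 13.9 CPM in EGF replicate 5. Its log2 fold change of 1.77 (SE 0.75) was 0.73 (SE 0.50) without that library. Batf2, Maff, Nab1 and Nab2, of which the last pair encode corepressors of EGR proteins, had the lowest p among the genes below 0, between 0.204 and 0.896 unadjusted.

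The factors upstream of the members, kinases of the ERK, JNK and p38 cascades with SRF, ELK and CREB proteins, were all tested, 21 of 21. There were 6 above 0 and 15 below, with a median log2 fold change of -0.082, and 1, Rps6ka3, had an unadjusted p under 0.05, beside 8.87% of all genes. Rps6ka3 encodes RSK2, a kinase that ERK activates, and was at 186 ± 17.3 CPM with saline and 148 ± 9.17 CPM with EGF (log2 fold change -0.33, SE 0.082, edgeR adjusted p = 0.552). All EGF libraries were below all saline libraries, beside 3.27% of all genes without overlap in either direction. DESeq2 passed Rps6ka3 on the genes kept for edgeR, where it called 20 of 12874 genes lower, and not on all genes with a count. Its log2 fold change without EGF replicate 5 was -0.32 (SE 0.076). DESeq2 then called 2 genes of the list lower, Rps6ka3 and Mapkapk2, a kinase that p38 activates, beside 130 of 13104 genes. Mapk3, which encodes the kinase ERK1, was at 39.9 ± 3.58 CPM and 28.4 ± 9.39 CPM, and Srf was at 50.4 ± 3.30 CPM and 40.7 ± 10.2 CPM. Both were lowest in EGF replicate 5, and without it their log2 fold changes were -0.30 (SE 0.099) and -0.17 (SE 0.085). Without that library 8 were above 0 and 13 below, and the list's median was -0.015.

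Of 23 other immediate early genes, all tested, 16 were above 0 and 7 below, with a median log2 fold change of 0.18 against -0.012 over all genes. The split was the same without EGF replicate 5, 16 and 7, but the median was lower, at 0.11. At an unadjusted p under 0.05, 6 were higher (Nr4a1, Nr4a2, Nr4a3, Btg2, Plk3 and Sik1), beside 6.14% of all genes, and 1 was lower (Myc). Without that library 8 were higher, beside 8.38% of all genes, and 1 lower. Btg2, an antiproliferative gene, was at 111 ± 11.3 CPM with saline and 169.6 ± 24.6 CPM with EGF (log2 fold change 0.61, SE 0.11, edgeR adjusted p = 0.402, and 0.54, SE 0.094, without EGF replicate 5). The nuclear receptor gene Nr4a1 was at 278 ± 84.2 CPM and 484 ± 104 CPM (log2 fold change 0.80, SE 0.21, and 0.85, SE 0.20, without it). Its relative Nr4a2 was at 36.5 ± 7.51 CPM and 74.4 ± 20.3 CPM (log2 fold change 1.03, SE 0.21, and 0.96, SE 0.19, without it). The groups did not overlap for these 3 genes, beside 3.27% of all genes. DESeq2 passed all 3 on the genes kept for edgeR, where it called 36 of 12874 genes higher. On all genes with a count it passed 2 of them, Btg2 and Nr4a2, beside 12 of 26950 genes called higher. Myc, the growth factor-induced transcription factor, was at 293 ± 12.6 CPM with saline and 249 ± 34.0 CPM with EGF (log2 fold change -0.24, SE 0.099, and -0.16, SE 0.060, without EGF replicate 5).

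Feedback genes of the pathway, dual-specificity phosphatases, Sprouty and Spred inhibitors and the Zfp36 relatives, numbered 15, of which 14 were tested (not Dusp8). There were 8 above 0 and 6 below, with a median log2 fold change of 0.026. Leaving out EGF replicate 5, there were 10 above 0 and 4 below, with a median of 0.099. Dusp6, a phosphatase specific for ERK and a widely used readout of ERK activity, was at 65.6 ± 10.5 CPM with saline and 81.5 ± 5.91 CPM with EGF (log2 fold change 0.31, SE 0.12, edgeR adjusted p = 0.552, and 0.32, SE 0.11, without EGF replicate 5). Zfp36l1 was at 47.8 ± 7.05 CPM and 57.8 ± 3.84 CPM (log2 fold change 0.27, SE 0.12, and 0.25, SE 0.11, without it). These 2 had an unadjusted p under 0.05, beside 6.14% of all genes in the higher direction, and the groups overlapped for both. At that p there were 4 without EGF replicate 5, Dusp4, Dusp5, Dusp6 and Zfp36l1, beside 8.38%. Zfp36l2, a further AU-rich element binding protein, lay below the saline range in EGF replicate 5 as Zfp36 did, at 369 CPM against 898 to 1129.9 CPM with saline. Dusp5 had a log2 fold change of 0.22 (SE 0.26) with all libraries and 0.42 (SE 0.10, edgeR adjusted p = 0.140) without EGF replicate 5. In the latter setting its groups did not overlap, beside 2.5% of all genes in the higher direction. DESeq2 then passed Dusp5, beside 183 of 13104 genes called higher.

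**Figure D5:**
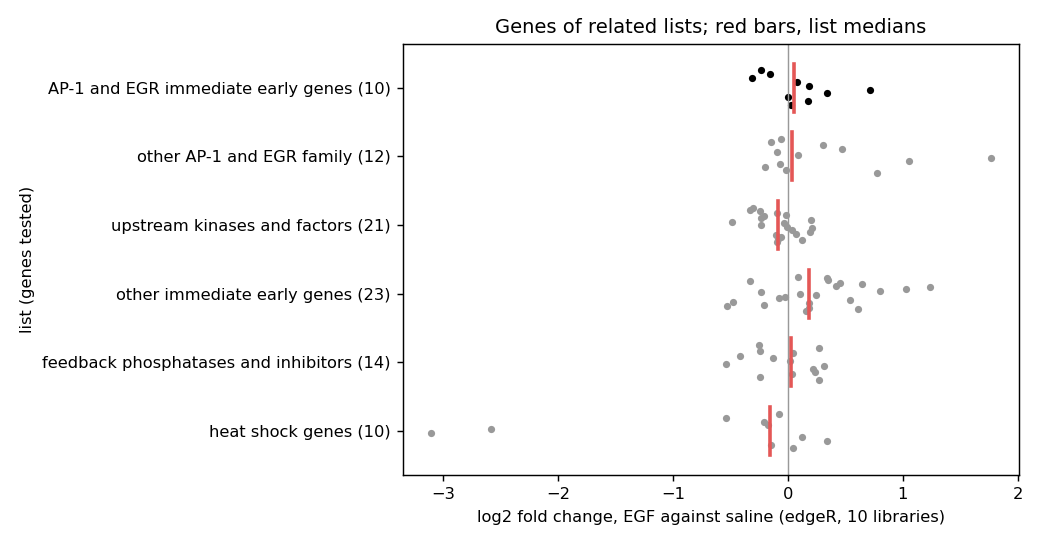
Log2 fold change (edgeR, 10 libraries) of each tested gene of the members (black) and of 5 related lists (grey), with a red bar for each list's median and the number of genes tested in parentheses. Most medians lie close to 0, with 0.18 for the other immediate early genes (0.11 without EGF replicate 5) and -0.16 for the heat shock genes (-0.15).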

How the data were processed

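Per the labels' protocols, RNA came from a Qiagen RNeasy Micro extraction, and a Clontech kit gave rRNA-depleted libraries that went through PCR. Named in the submitters' processing notes are STAR, bcl2fastq 2.17 and the builds mm10 and GRCm38. Which tool counted reads, with which strand setting and annotation, is not given in the sources used here. The deposited values are whole-number read counts per gene, 1 file per library, without normalization. Depth was 6805106 to 8370820 counts. PCR copies cannot be told apart, so intervals cover counting error only. No 2 of the 10 libraries agreed within sampling noise (45 pairs, lowest chi-square per degree of freedom 5.94).

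EGF and saline libraries, 5 each, were compared with edgeR 4.0.16 (R 4.3.3): genes kept by filterByExpr (minimum count 10), TMM scaling, the quasi-likelihood test over all 12874 genes, Benjamini-Hochberg adjustment and a threshold of 0.05. CPM values are TMM-scaled, except marker sums, which are scaled by the total count alone. Alternatives were RLE scaling, library size alone, DESeq2 1.42.0, limma-voom (limma 3.58.1) with quality weights, a replicate block, a minimum of 1 CPM in 5 libraries or no minimum, and each library left out. Gene positions and lengths are from GENCODE M21.

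The members and lists were chosen with earlier results of these data known. All members are named. From each list, up to 4 genes with the smallest p in each direction could be named, and genes counted at 5 or fewer are named besides. On simulated counts (12520 genes, 50 changed per fold), the test recovered 16% at a 1.5-fold change, 30% at 2-fold, 86% at 4-fold and 88% at 8-fold, with 7 false calls.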

Additional observations from a re-analysis of the deposited data

Results flagged for a closer look

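Zfp36 in EGF replicate 5, at 162 CPM, lay far from the other 4 EGF libraries (328 to 378 CPM). Its gap to the nearest library was 0.768 of the group's whole range, above the critical value of 0.71. Each of the 10 members was looked at in each group, 20 sets of 5 libraries in all, and this was the 1 that passed. Chance alone passes about 5% of such sets.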

How the results depend on the processing

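Fosl2, Egr1, Ier2, Junb and Zfp36 kept their sign under all alternatives run. Of 230 values of single members, 203 kept both sign and side of the threshold, 24 changed sign and 3, all of Fosl2 by DESeq2, passed. Genes past the threshold numbered 1 by edgeR, 0 with library size alone, 56 with DESeq2 (27 on all genes with a count), 12 with limma-voom with quality weights, and 0 to 8 with 1 library left out. Without EGF replicate 5 they numbered 313 with DESeq2 (310 on all genes with a count) and 6 with limma-voom. Without EGF replicates 3 and 4 they numbered 0. With the replicate number as a block they numbered 0, and the log2 fold change of Fosl2 was 0.68 (edgeR adjusted p = 0.780). Same-numbered libraries did not deviate together (r from -0.078 to 0.019, 1 of 5 best with its own number). The EGF deviations were taken from a mean that included EGF replicate 5, which could mask a shared source. Whether same-numbered libraries share more than a number is therefore not settled. Members past the threshold numbered 0, but 1 (Fosl2) with DESeq2, with DESeq2 without EGF replicate 5 and with that on all genes with a count. Members without overlap numbered 1, but 0 with library size alone. Without EGF replicates 3, 4 and 5, those with the most Fosl2 and Fosb, they numbered 2 (Fosl2 and Fosb). Only 2 EGF libraries were left there, which separates groups more easily, and the share over all genes was not taken, so that count is not comparable. With 1 library left out these counts stayed at 0 and at 1, and the members' median ran from 0.0088 to 0.13.

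The log2 fold change of Fos, near 0, turned to 0.0085 with RLE scaling and with DESeq2, 0.0059 with DESeq2 on all genes with a count and 0.0026 with the filter of 1 CPM, and ran from -0.13 to 0.082 with 1 library left out. That of Fosb turned to -0.035 with limma-voom (-0.055 without EGF replicate 5) and to -0.34 without EGF replicates 3, 4 and 5. In this last setting Jun turned to -0.042 and Dusp1 to -0.070. Jund turned to 0.029 with limma-voom, with or without EGF replicate 5, and without that library to 0.034 with DESeq2 and 0.029 with DESeq2 on all genes with a count. It ran from -0.27 to 0.032 with 1 library left out. Dusp1 turned to -0.0078 with limma-voom (-0.013 without EGF replicate 5) and -0.035 without EGF replicates 3 and 4, and ran from -0.0085 to 0.12 with 1 library left out. The cause of these changes was not tested. The fits without EGF replicates 3 and 4 or 3 to 5, limma-voom without replicate 5 and DESeq2 on all genes were chosen after seeing the data. Counts were simulated for 5 libraries a group with the spread estimated from all 10 libraries, EGF replicate 5 included. Most changes of 1.5-fold and of 2-fold were missed in them (16% and 30% recovered).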

Other observations

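Heat shock genes, which encode chaperones and respond to protein stress, are another group that is quick to change. Of 11, 10 were tested (not Hspb1), with 3 above 0, 7 below and a median log2 fold change of -0.16, and 0 passed edgeR's adjusted test. At an unadjusted p under 0.05, 3 were lower with EGF, Hspa1a, Hspa1b and Hspe1, beside 8.87% of all genes in either direction. Without EGF replicate 5, 2 were above 0 and 8 below, with a median of -0.15. At that p, 4 were then lower, the same 3 and Hspd1, beside 15.8% of all genes in either direction (8.38% in the higher direction). The inducible HSP70 gene Hspa1a ranged from 0.888 to 12.4 CPM with saline and from 0.14 to 1.42 CPM with EGF, and its near-identical copy Hspa1b from 1.02 to 21.2 CPM and from 0.14 to 4.36 CPM, so reads may have been split between them. Hspe1, a mitochondrial chaperonin, was at 90.5 ± 11.1 CPM with saline and 62.3 ± 17.2 CPM with EGF (SD, n = 5 each). All EGF libraries were below all saline libraries, beside 3.27% of all genes without overlap in either direction. Without EGF replicate 5 the log2 fold change of Hspe1 was -0.38 (SE 0.099). DESeq2 then passed Hspe1 and Hspa1a, beside 130 of 13104 genes called lower. With all libraries DESeq2 passed Hspa1a on all genes with a count, beside 15 of 26950 genes called lower, and 0 heat shock genes on those kept for edgeR. In EGF replicate 5 the HSP90 genes were high, Hsp90aa1 at 3728 CPM against 1314 to 1714 CPM with saline, and Hsp90ab1 at 7864 CPM against 3809 to 4663 CPM.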
